A study of Mus musculus with 8 samples.

Results

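The transcripts described are 43 interferon-stimulated genes of the mouse, chosen by symbol, measured in 8 RNA libraries of sorted eosinophils from a mouse asthma model. Of the 43, 34 are listed as responders to type I interferon and 9 as responders to interferon gamma, and all 43 were found among the 54446 genes of the count tables. Libraries were made by CEL-Seq, a method that amplifies RNA in a linear way and reads the 3' ends of transcripts. By their labels 4 libraries hold resident eosinophils (replicates 3 to 6), 2 hold Siglec-Fint/CD101- eosinophils and 2 hold SiglecFhi/CD101+ eosinophils (replicates 1 and 2 each). All came from C57BL/6 mice, and the labels give no treatment, age, sex or animal for any library. The 2 subsets are named by surface proteins: Siglec-F, a lectin that binds sialic acid, and CD101, a member of the immunoglobulin superfamily. Nothing says that replicates came from separate animals, so p-values measure the spread between these libraries, which may be technical.

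Interferons are secreted proteins that put cells into an antiviral state. Type I interferons bind the receptor made of Ifnar1 and Ifnar2 and act through a complex that holds Stat2 and Irf9 and binds the interferon-stimulated response element (ISRE) of its target genes. Interferon gamma binds Ifngr1 and Ifngr2 and acts on genes that carry the gamma-activated site (GAS), and many genes answer to both. Eosinophils, granulocytes best known from allergic airway disease, carry receptors for both kinds of interferon.

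Promoter sequence was available for 34 of the 43 genes, from RefSeq on build GRCm38.p6. Not matched were Mx1, Mx2, Oas2, Usp18, Dhx58, Parp14, Rtp4, Zbp1 and Ifi27l2a. Within 250 bases before the start site, both strands were searched for an ISRE-like word (GAAA, 2 bases, GAAA) and for a GAS-like word (TTCNNNGAA), and overlapping matches were counted apart. The ISRE-like word stood before 16 of the 34 genes (47.1%), against 3.46% of 27025 genes with a promoter in the same source. It was found for 9 of 25 type I responders (36%) and for 7 of 9 gamma responders (77.8%). The GAS-like word stood before 10 of the 34 genes (29.4%), namely 6 of 25 type I and 4 of 9 gamma responders, against 8.13% of all genes. A match is a description of these letters and not a bound site. Upstream sequences of 5 members are printed to show both words, with matches in capitals, 5′ to 3′ on the strand of the gene. Isg15 (chr4:156200819-156201068, minus strand) has 3 overlapping ISRE-like words, Ifit3 (chr19:34583279-34583528, plus strand) has 2, and Cxcl10 (chr5:92348890-92349139, minus strand) has 1. Gbp7 (chr3:142530086-142530335, plus strand) has 1 ISRE-like and 2 GAS-like words, and Irf1 (chr11:53769764-53770013, plus strand, the first of 2 listed start sites) has 1 GAS-like word. In Ifit3 and Gbp7 the ISRE-like matches lie on the opposite strand and read TTTC, 2 bases, TTTC.
Isg15: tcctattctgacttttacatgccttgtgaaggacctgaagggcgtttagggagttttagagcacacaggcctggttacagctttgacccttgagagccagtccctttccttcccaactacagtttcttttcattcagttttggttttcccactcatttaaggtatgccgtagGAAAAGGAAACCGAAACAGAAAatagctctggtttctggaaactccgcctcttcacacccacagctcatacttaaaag
Ifit3: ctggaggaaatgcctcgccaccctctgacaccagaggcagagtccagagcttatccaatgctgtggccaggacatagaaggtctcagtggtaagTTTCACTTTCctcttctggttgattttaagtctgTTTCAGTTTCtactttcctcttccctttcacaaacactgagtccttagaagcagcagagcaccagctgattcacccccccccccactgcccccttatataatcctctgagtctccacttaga
Cxcl10: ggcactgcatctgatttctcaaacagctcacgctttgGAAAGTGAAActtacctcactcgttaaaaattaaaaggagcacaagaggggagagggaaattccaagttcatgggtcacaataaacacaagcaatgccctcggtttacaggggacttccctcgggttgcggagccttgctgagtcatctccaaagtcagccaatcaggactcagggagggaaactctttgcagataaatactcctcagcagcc
Gbp7: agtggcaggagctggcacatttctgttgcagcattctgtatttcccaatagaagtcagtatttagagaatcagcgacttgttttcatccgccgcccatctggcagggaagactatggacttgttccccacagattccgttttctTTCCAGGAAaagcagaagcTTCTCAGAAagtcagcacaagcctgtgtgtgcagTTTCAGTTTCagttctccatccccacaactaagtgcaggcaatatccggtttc
Irf1: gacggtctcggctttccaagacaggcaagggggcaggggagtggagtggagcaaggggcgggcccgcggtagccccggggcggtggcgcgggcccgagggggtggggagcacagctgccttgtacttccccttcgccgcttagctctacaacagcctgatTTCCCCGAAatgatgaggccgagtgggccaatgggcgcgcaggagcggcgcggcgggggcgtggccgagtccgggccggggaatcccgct

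Depth differed between the groups. Total counts lay between 5600610 and 11583550 in resident libraries and between 1513517 and 3109428 in the 4 of the subsets. Genes of the mitochondrial genome took 38.6% to 61.8% of the counts in resident libraries and 69.9% to 83.9% in subset libraries, so that 2137819 to 5296468 counts were left outside them in resident and 444902 to 552121 in subset libraries. Depth and mitochondrial share separate resident from subset libraries without overlap, and their part in any difference cannot be told apart from the group. Several defining eosinophil genes had few or no counts: Epx (eosinophil peroxidase) had 25, all in resident replicate 5, Prg3 had 0 in all 8 libraries, and Siglecf had 0 in both Siglec-Fint/CD101- libraries. Prg2, the major basic protein gene, had 63 to 121 counts in resident libraries, 1 and 3 in those of Siglec-Fint/CD101- and 73 and 385 in those of SiglecFhi/CD101+. The 10 eosinophil markers listed summed to 553 to 1115 counts per 1000000 counts outside the mitochondrial genome in resident libraries. The Siglec-Fint/CD101- libraries gave 462 and 833, and the SiglecFhi/CD101+ libraries 368 and 1450. Ear2 alone held 210 of the 211 eosinophil marker counts of Siglec-Fint/CD101- replicate 1. Without Ear2 the sum of that library fell to 2.19, whereas resident libraries kept 148 to 370. Replicate 2 of the same subset kept 523, and the SiglecFhi/CD101+ libraries kept 208 and 1009. The 10 macrophage markers summed to 2424 to 3431 in resident and 6152 to 15884 in subset libraries, where Chil3 gave most of the counts. The other 9 summed to 890 to 1668 and 724 to 2480. The 6 epithelial markers stood at 2443 to 39971 in resident and 12936 to 25256 in subset libraries, and the 8 endothelial and fibroblast markers at 418 to 3146 and 2164 to 3311. Summed monocyte markers were lower in all 4 subset libraries, at 164 to 217 against 293 to 588. Plac8 went the other way, with 65 of 99 and 49 of 96 of these counts in Siglec-Fint/CD101- replicates 1 and 2. It gave 68 of 73 in SiglecFhi/CD101+ replicate 2, but 26 to 175 of 830 to 2975 in resident libraries. Dendritic cell markers stood at 274 to 806 against 629 to 1236, but without Itgax, the gene of CD11c, at 162 to 479 against 347 to 419. Itgax itself had 4 to 187 raw counts in subset and 1037 to 4420 in resident libraries. Per depth its groups overlapped, with 187 of 481468 counts outside the mitochondrial genome in Siglec-Fint/CD101- replicate 2 and 1298 of 4660989 in resident replicate 5. Plasmacytoid dendritic cells are known as producers of type I interferon, and their 7 markers summed to 165 to 350 in resident and 348 to 718 in subset libraries, and Tcf4 gave most of these counts in all libraries but Siglec-Fint/CD101- replicate 1. Siglech had 108 counts over all libraries and Klk1 had 0. Neutrophil markers summed to 398 to 1377 in resident and 924 to 5045 in subset libraries, but without Retnlg to 39.4 to 242 and 120 to 303. T and NK cell markers summed to 51.0 to 139 and 97.6 to 973, but without Trbc2 to 50.5 to 60.6 and 9.0 to 95.5, and Nkg7 had 49 to 126 counts in resident and at most 2 in a subset library. B cell markers summed to 221 to 515 in resident and 499 to 2431 in subset libraries. The part of such cells in the values of interferon-stimulated genes was not tested. The tables of the resident libraries carry the letter N, those of Siglec-Fint/CD101- R and those of SiglecFhi/CD101+ I, which the labels do not explain. Groups follow the labels throughout.

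Most interferon-stimulated genes were detected in resident libraries and fewer in the subsets. At least 1 count was found for 36, 39, 38 and 39 of the 43 genes in resident replicates 3 to 6, for 23 and 26 in those of Siglec-Fint/CD101- and for 33 and 21 in the SiglecFhi/CD101+ libraries. At a common depth of 444902 non-mitochondrial counts the expected numbers were 33.1, 33.8, 35.9 and 35.2 in resident libraries, 23.0 and 25.8 in Siglec-Fint/CD101- libraries and 31.7 and 21 in SiglecFhi/CD101+ libraries. Every resident value lay above every subset value at either depth. The same measure over all genes was 10644 to 12804 in resident libraries, 7300 and 8361 in Siglec-Fint/CD101- libraries and 10422 and 9214 in SiglecFhi/CD101+ libraries, likewise all lower in the subsets. In these bulk libraries fewer cells that express a gene and less RNA per cell cannot be told apart.

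**Figure D1:**
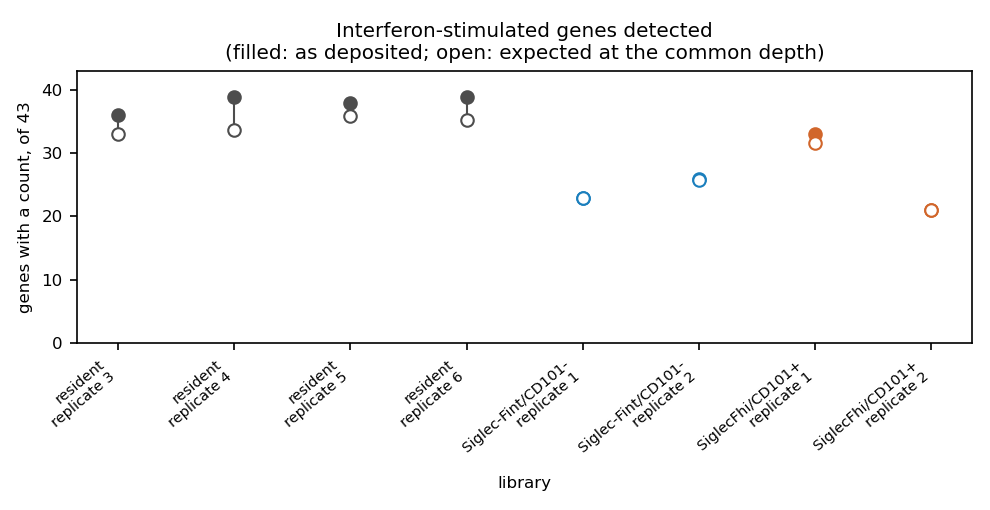
Number of the 43 interferon-stimulated genes with at least 1 count (y axis) in each library (x axis), in the deposited counts (filled points) and the number expected at 444902 non-mitochondrial counts (open points). Resident libraries (grey) lie at 36 to 39 and 33.1 to 35.9, above the Siglec-Fint/CD101- (blue) and SiglecFhi/CD101+ (orange) libraries at both depths.

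A total of 41 members had a count somewhere, and Ifitm2 and Igtp had 0 in all 8 libraries. The annotation lays 40.9% of the exon bases of Ifitm2 over another gene on the same strand, Gm45717, and 8.01% of those of Igtp over Irgm2, and how reads in shared bases were counted is not given in the sources used here. Counts were found in every library for 14 members and in all 4 resident libraries for 34. Ifit2, Mx1, Mx2, Oas2 and Cxcl9 had counts in resident libraries and 0 in all 4 subset libraries. Ifit2, Mx2 and Oas2 had 76, 43 and 36 counts in all, and a 0 in the shallower subset libraries does not show absence. No count was found for 10 of the 41 members in Siglec-Fint/CD101- and for 6 in SiglecFhi/CD101+. Over the 21197 genes with a count these numbers were 10431 and 7660. Within a subset the 2 libraries often differed in which genes were seen: 13 of the 31 members detected in Siglec-Fint/CD101- (41.9%) and 16 of the 35 detected in SiglecFhi/CD101+ (45.7%) had a count in 1 library only. Over all genes detected in these subsets the shares were 52.6% and 51.7%.

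**Figure D2:**
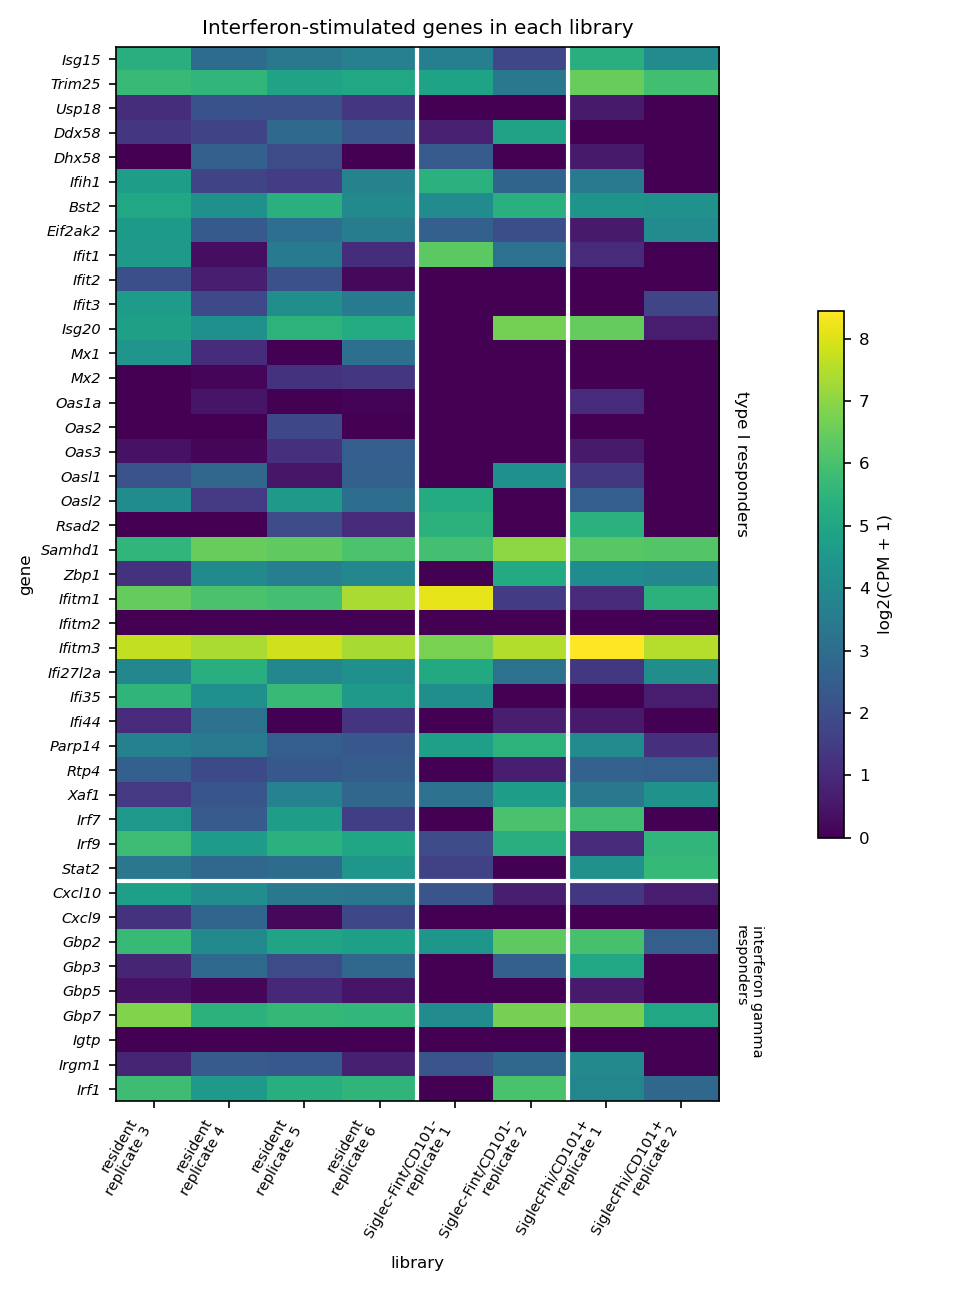
Level of each of the 43 genes (rows, type I responders above and gamma responders below the white line) in each of the 8 libraries (columns), as log2(CPM + 1), with CPM on TMM-adjusted totals. Ifitm3 and Samhd1 are bright in every column, while Isg20, Irf7, Ifitm1 and others are bright in 1 library of a subset and dark in the other.

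Summed over the list, type I responders had a mean of 1967 ± 372 (SD, n = 4) in resident, 2446 ± 33.1 (n = 2) in Siglec-Fint/CD101- and 2477 ± 585 (n = 2) in SiglecFhi/CD101+ libraries, in counts per 1000000 counts outside the mitochondrial genome, with no test of the sum. By library, the 34 genes summed to 2211, 1458, 2276 and 1922 in resident replicates 3 to 6. Siglec-Fint/CD101- libraries gave 2423 and 2470 and SiglecFhi/CD101+ libraries 2891 and 2063. Both Siglec-Fint/CD101- values lay above the resident range, and the SiglecFhi/CD101+ values overlapped it. On TMM-scaled CPM (counts per 1000000 of the adjusted library size) the sums were 695 ± 95.6 in resident (SD, n = 4), 772 ± 47.1 in Siglec-Fint/CD101- (n = 2) and 703 ± 202 in SiglecFhi/CD101+ libraries (n = 2), and all groups overlapped. A single gene took much of the sum: Ifitm3 or Ifitm1 made up 24.1% to 41.2% of the type I counts of each library.

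The 9 gamma responders varied more within a subset than between groups. They summed to 697, 291, 410 and 392 counts per 1000000 counts outside the mitochondrial genome in resident replicates 3 to 6. For Siglec-Fint/CD101- the sums were 134 and 872, and for SiglecFhi/CD101+ 786 and 162. In each subset 1 library lay above and 1 below all 4 resident libraries. Gbp7 or Gbp2 was the leading transcript of this sum in every library.

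**Figure D3:**
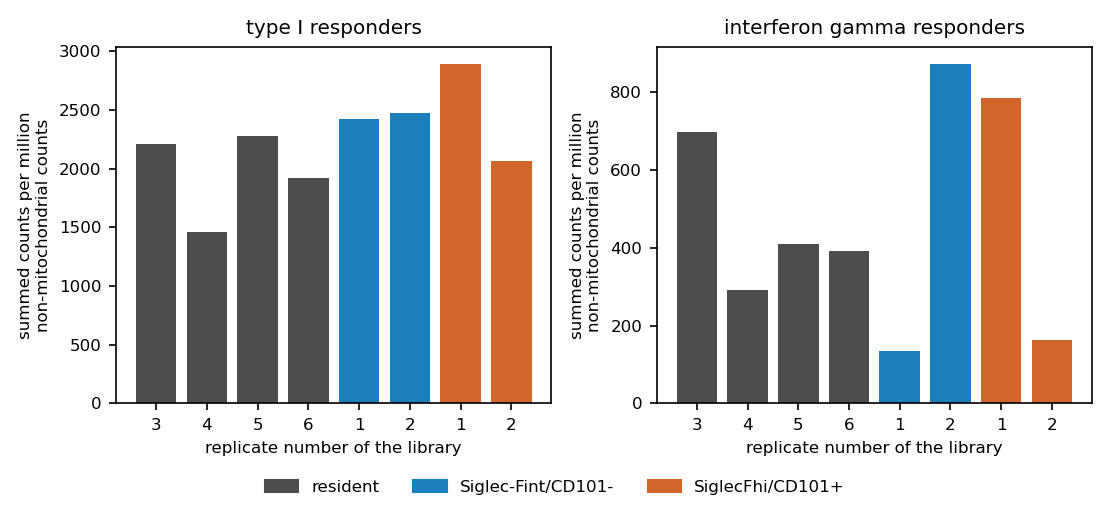
Summed level of type I responders (left) and gamma responders (right), in counts per 1000000 counts outside the mitochondrial genome (y axes, starting at 0) in each library, by replicate number (x axes) and group (colour). The type I bars run from 1458 to 2891, and the gamma bars of each subset lie on both sides of the resident bars.

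In the values that follow, CPM stands for counts per 1000000 of the TMM-adjusted library total, resident replicates come in the order 3, 4, 5 and 6, and subset replicates in the order 1 and 2. A count of 3, used as the floor of a library, equals 0.200 to 0.501 CPM in resident and 1.59 to 2.18 CPM in subset libraries, so a 0 in a subset library allows a level up to that of its floor. These floors and the intervals of ratios cover counting error only. Because reads come from 3' ends, values are compared between libraries and not between genes.

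The transcription factors through which interferon signals are passed on were present in all groups, with large differences between libraries. Stat2, a subunit of the type I signalling complex (chr10:128270559-128292849), was at 9.19, 6.21, 7.01 and 20.7 CPM in resident libraries, at 2.18 and 0 in Siglec-Fint/CD101- and at 18.6 and 49.4 in SiglecFhi/CD101+ libraries. The Siglec-Fint/CD101- values lay below all others. Irf9, the DNA-binding subunit of the same complex, was at 54.5, 24.6, 40.9 and 30.3 CPM in resident libraries, at 2.91 and 38.5 in Siglec-Fint/CD101- and at 1.06 and 46.4 in SiglecFhi/CD101+ libraries. Irf7, which drives further interferon alpha production, was at 21.9, 4.32, 25.4 and 2.00 CPM, at 0 and 63.95 CPM, and at 57.3 and 0 CPM in the same order. For Irf9 and Irf7 each subset thus held 1 high and 1 low library. Irf1, an early factor of the gamma response, was at 55.1, 22.6, 38.3 and 45.2 CPM in resident libraries, at 0 and 64.6 in Siglec-Fint/CD101- and at 13.8 and 6.10 in SiglecFhi/CD101+ libraries, the last of which lay below all resident values.

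Among genes of the ISG15 system, Isg15 itself, a ubiquitin-like protein joined to other proteins, was at 38.6, 6.92, 9.46 and 11.8 CPM in resident libraries. Its levels were 11.6 and 2.48 CPM in Siglec-Fint/CD101- and 38.7 and 15.9 CPM in the SiglecFhi/CD101+ group. The SiglecFhi/CD101+ values lay above those of Siglec-Fint/CD101- and overlapped the resident range, in which replicate 3 stood apart. Usp18, the protease that removes Isg15 from proteins and dampens the type I receptor, was at 1.17, 3.38, 3.29 and 1.53 CPM in resident libraries, at 0 in both Siglec-Fint/CD101- libraries and at 0.530 and 0 in SiglecFhi/CD101+ libraries. Trim25, a ubiquitin ligase of the RIG-I pathway, was at 50.5, 45.7, 27.9 and 32.1 CPM in resident, at 29.1 and 9.31 in Siglec-Fint/CD101- and at 88.0 and 58.5 in SiglecFhi/CD101+ libraries. Trim25 was the only member that lay above every resident library in both SiglecFhi/CD101+ libraries.

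The cytosolic RNA sensors were uneven across libraries. Ddx58, the gene of RIG-I (chr4:40203773-40239828), was at 1.504, 2.36, 6.59 and 3.66 CPM in resident libraries, at 0.727 and 27.9 in Siglec-Fint/CD101- libraries and at 0 in both SiglecFhi/CD101+ libraries. Ifih1, the gene of MDA5, was at 25.2, 2.36, 1.89 and 12.6 CPM in resident, at 41.4 and 5.59 in Siglec-Fint/CD101- and at 10.1 and 0 in SiglecFhi/CD101+ libraries. Dhx58, the gene of LGP2, was at 0, 5.03, 2.87 and 0 CPM in resident, at 4.36 and 0 in Siglec-Fint/CD101- and at 0.530 and 0 in SiglecFhi/CD101+ libraries. Of the 3 sensors Ddx58 alone was absent from both libraries of a subset.

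The Ifit genes code for proteins that bind foreign RNA, and their 3 members did not follow 1 pattern. Ifit3 (chr19:34583531-34588731) was at 23.9, 2.67, 17.3 and 10.3 CPM in resident libraries, at 0 in both Siglec-Fint/CD101- libraries and at 0 and 2.44 in SiglecFhi/CD101+ libraries, which hold 4 counts. Ifit1 (chr19:34640871-34650009) was at 22.1, 0.236, 9.96 and 1.13 CPM in resident, at 78.5 and 8.07 in Siglec-Fint/CD101- and at 1.06 and 0 in SiglecFhi/CD101+ libraries. Ifit2 had 76 counts, all in resident libraries, at 0.133 to 3.29 CPM. Thus Ifit3 and Ifit2 lay below every resident library in both subsets, although the floors of the subset libraries lie above the lowest resident values of Ifit2. Ifit1 was low in the SiglecFhi/CD101+ libraries and present in both Siglec-Fint/CD101- libraries.

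The Mx family includes antiviral GTPases and the oligoadenylate synthetase family enzymes that activate RNase L, and most of these genes had few counts. The annotation lists Mx2 as a polymorphic pseudogene, and counts do not show whether Mx1 or Mx2 makes a working protein in these mice. Mx1 was at 20.4, 1.101, 0 and 7.58 CPM in resident libraries but had 0 counts in all 4 subset libraries. Mx2, Oas1a, Oas2 and Oas3 had 43, 8, 36 and 94 counts over all libraries, of which the subsets held 2 of Oas1a and 1 of Oas3. Oasl1 was at 3.51, 5.90, 0.421 and 4.99 CPM in resident, at 0 and 18.0 in Siglec-Fint/CD101- and at 1.59 and 0 in SiglecFhi/CD101+ libraries. Oasl2 was at 16.4, 1.73, 22.9 and 7.32 CPM in resident, at 35.6 and 0 in Siglec-Fint/CD101- and at 4.77 and 0 in SiglecFhi/CD101+ libraries. For both synthetase-like genes the resident values overlapped those of each subset.

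Among the other antiviral effectors, Samhd1 and Bst2 were counted in every library and others were uneven. Samhd1, which breaks down nucleotides that viruses need (chr2:157097533-157135265), was at 46.0, 88.1, 82.0 and 65.6 CPM in resident, at 60.4 and 127 in Siglec-Fint/CD101- and at 74.8 and 71.3 in SiglecFhi/CD101+ libraries. Bst2, the gene of tetherin, which holds budding virus at the cell surface, was at 31.8, 18, 40.03 and 15.03 CPM in resident, at 16 and 40.4 in Siglec-Fint/CD101- and at 19.6 and 18.3 in SiglecFhi/CD101+ libraries. For these 2 genes the groups overlapped on CPM, and no library was near 0. Eif2ak2, the RNA-activated kinase PKR, was at 23.2, 4.25, 7.57 and 10.8 CPM in resident, at 5.09 and 3.10 in Siglec-Fint/CD101- and at 0.530 and 15.9 in SiglecFhi/CD101+ libraries. Zbp1, a sensor of Z-form nucleic acids, was at 1.34, 15.3, 11.3 and 13.9 CPM in resident, at 0 and 34.8 in Siglec-Fint/CD101- and at 16.4 and 14.03 in SiglecFhi/CD101+ libraries. Both spread over more than 10 CPM within the resident group. Isg20, an RNA exonuclease, was at 27.1, 18.1, 43.4 and 35.3 CPM in resident, at 0 and 102 in Siglec-Fint/CD101- and at 87.5 and 0.610 in SiglecFhi/CD101+ libraries. Rsad2, the gene of viperin, was at 0, 0, 2.87 and 1.06 CPM in resident, at 42.2 and 0 in Siglec-Fint/CD101- and at 41.4 and 0 in SiglecFhi/CD101+ libraries. The high values of Isg20 and Rsad2 in each subset therefore came from 1 of its 2 libraries.

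The Ifitm genes code for membrane proteins that block viral entry, and Ifitm3 was counted in every library. Ifitm3 (chr7:141009586-141010770) was at 203, 166, 226 and 163 CPM in resident, at 106 and 178 in Siglec-Fint/CD101- and at 348 and 182 in SiglecFhi/CD101+ libraries. Both SiglecFhi/CD101+ values lay above both Siglec-Fint/CD101- values, and the resident range overlapped each subset. Ifitm1 was at 86.4, 64.6, 59.2 and 164 CPM in resident, at 283 and 1.86 in Siglec-Fint/CD101- and at 1.06 and 42.1 in SiglecFhi/CD101+ libraries, the last of which lay below all resident values.

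Of the remaining type I responders, Ifi35 was at or near 0 in 3 of the 4 subset libraries. Ifi35, which codes for an interferon-induced leucine zipper protein (chr11:101448407-101458698), was at 44.6, 17.9, 52.1 and 22.3 CPM in resident, at 17.4 and 0 in Siglec-Fint/CD101- and at 0 and 0.610 in SiglecFhi/CD101+ libraries, and 16.8% of its exon bases overlap Gm11626 on the opposite strand. Ifi27l2a was at 14.5, 39.1, 14.2 and 17.8 CPM in resident, at 34.2 and 8.07 in Siglec-Fint/CD101- and at 1.59 and 17.1 in SiglecFhi/CD101+ libraries. Ifi44 was at 1.00, 8.10, 0 and 1.40 CPM in resident, at 0 and 0.621 in Siglec-Fint/CD101- and at 0.530 and 0 in SiglecFhi/CD101+ libraries. Ifi35 lay below the resident range in all 4 subset libraries, by little in Siglec-Fint/CD101- replicate 1. Xaf1, which codes for a binding partner of the apoptosis inhibitor XIAP, was at 1.67, 3.77, 12.3 and 5.92 CPM in resident, at 7.998 and 25.5 in Siglec-Fint/CD101- and at 9.54 and 18.9 in SiglecFhi/CD101+ libraries. Parp14, an ADP-ribosyltransferase, was at 12.2, 10.5, 4.70 and 3.92 CPM in resident, at 26.2 and 42.8 in Siglec-Fint/CD101- and at 15.9 and 1.22 in SiglecFhi/CD101+ libraries. Parp14 lay above all other libraries in both Siglec-Fint/CD101- libraries. Rtp4, a receptor transporter protein, was at 5.01, 2.75, 4.07 and 4.59 CPM in resident, at 0 and 0.621 in Siglec-Fint/CD101- and at 5.30 and 4.88 in SiglecFhi/CD101+ libraries, and its Siglec-Fint/CD101- values lay below all others. Rtp4 shares 13.9% of its exon bases with Gm45338 on the same strand.

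The gamma responders include 2 chemokines, Cxcl9 and Cxcl10, which draw T cells through the receptor Cxcr3. Cxcl10 (chr5:92346638-92348889) was at 26.6, 16.6, 9.32 and 9.04 CPM in resident, at 3.63 and 0.621 in Siglec-Fint/CD101- and at 1.59 and 0.610 in SiglecFhi/CD101+ libraries. Cxcl9 was at 1.34, 5.82, 0.140 and 2.53 CPM in resident libraries but had 0 counts in all 4 subset libraries. Both chemokines lay below every resident library in every subset library, although the floors of the subset libraries lie above the lowest resident values of Cxcl9. Of the exon bases of Cxcl10, 5.91% overlap Art3 on the opposite strand. Summed monocyte markers were also lower in subset than in resident libraries, though Plac8 was not lower per depth. Summed dendritic cell markers were lower with overlap, but without Itgax only SiglecFhi/CD101+ replicate 2 lay below the resident range. Scaled to counts outside the mitochondrial genome, these other markers stood at 347 to 419 in resident libraries. They stood at 479 and 417 in Siglec-Fint/CD101- and at 471 and 162 in SiglecFhi/CD101+ libraries. The part of monocytes and dendritic cells in the values of Cxcl9, Cxcl10 and the Ifit genes was not tested.

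The guanylate-binding proteins are GTPases that attack the vacuoles of intracellular pathogens. Gbp7 (chr3:142530342-142550149) was at 113, 42.5, 48.7 and 47.2 CPM in resident, at 16 and 103 in Siglec-Fint/CD101- and at 105 and 32.3 in SiglecFhi/CD101+ libraries. Gbp2 was at 50.8, 15.4, 29.7 and 27.0 CPM in resident, at 21.1 and 81.3 in Siglec-Fint/CD101- and at 62.6 and 4.88 in SiglecFhi/CD101+ libraries. Gbp3 was at 0.836, 6.37, 2.94 and 6.05 CPM in resident, at 0 and 4.97 in Siglec-Fint/CD101- and at 31.8 and 0 in SiglecFhi/CD101+ libraries. All 3 were higher in Siglec-Fint/CD101- replicate 2 than in replicate 1, and higher in SiglecFhi/CD101+ replicate 1 than in replicate 2. Gbp5 had 24 counts in all, 23 of them in resident libraries. Irgm1, an immunity-related GTPase, was at 0.836, 4.40, 4.07 and 0.665 CPM in resident, at 3.63 and 6.21 in Siglec-Fint/CD101- and at 14.8 and 0 in SiglecFhi/CD101+ libraries. Gbp7 shares 11.3% of its exon bases with Gm43802 on the same strand, so some of its reads are uncertain.

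**Figure D4:**
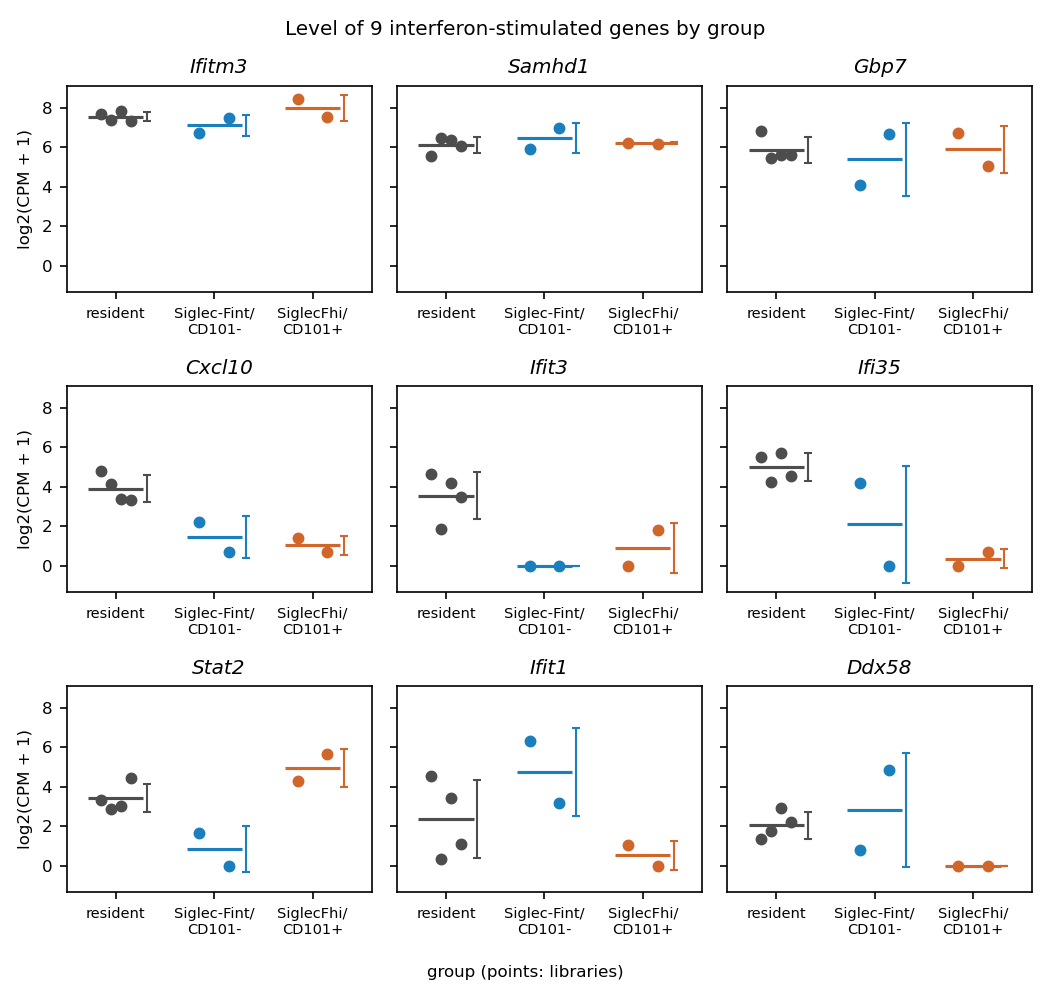
Level of 9 members as log2(CPM + 1) (y axis) in the 3 groups (x axis); points are libraries, horizontal lines group means and bars 1 SD (n = 4, 2 and 2). Ifitm3 and Samhd1 lie at a like height in all groups, and Cxcl10 lies lower in all 4 subset libraries than in any resident library.

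SiglecFhi/CD101+ libraries were compared with resident libraries first, and no member passed. The test was edgeR's quasi-likelihood test over 11828 genes with Benjamini-Hochberg adjustment, in which 36 members were tested, 29 type I and 7 gamma responders. The filter on low counts left out Mx2, Oas1a, Oas2, Ifi44 and Gbp5, besides Ifitm2 and Igtp. At an adjusted p under 0.05 it called 0 members, 0 higher and 0 lower, against 0.0254% of all tested genes. The smallest adjusted p among members was that of Ifi35, 0.207, with a log2 fold change of -6.79 ± 2.19 (SE), where the SiglecFhi/CD101+ group held 1 count and the resident group 1573. Without SiglecFhi/CD101+ replicate 2, which held that count, the fitted value for Ifi35 was -11.0, dependent on the prior count. The ratio of the counts per depth was 116, with a 95% counting interval of 20.7 to 4566. Ddx58 was at least 4.60-fold lower, with 0 counts in SiglecFhi/CD101+ against a floor of 3 over the group, and had an adjusted p of 0.279 in edgeR. Cxcl10 had an edgeR log2 fold change of -3.77 ± 1.78 (SE, with adjusted p = 0.299) and was lower in both SiglecFhi/CD101+ libraries than in all 4 resident libraries. For 3 members counted in every library the value was about the size of its standard error or smaller: Ifitm3 had a log2 fold change of 0.49 ± 0.49, Samhd1 of 0.05 ± 0.66 and Gbp7 of 0.13 ± 0.86 (SE; edgeR). On library totals alone these 3 values turned to -0.35, -0.66 and -0.70, and without SiglecFhi/CD101+ replicate 1 to -0.13, -0.06 and -1.04. Samhd1 also turned negative, by at most -0.05, without resident replicate 3, without either Siglec-Fint/CD101- replicate, or without SiglecFhi/CD101+ replicate 2.

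At an unadjusted p under 0.05 edgeR gave 0 members higher and 2 lower (Ddx58 and Ifi35), 5.56% of those tested, against 16.8% of all tested genes. DESeq2 called 1 member, Ifi35, lower (2.78%), against 7.65% of all genes, and limma-voom called 0 members, against 0.0169%. On CPM 9 of the 41 members with a count lay below every resident library in both SiglecFhi/CD101+ libraries (21.95%), against 16.7% of 21197 genes. These were Ifit2, Ifit3, Irf1, Usp18, Ifi35, Ddx58, Ifitm1, Cxcl9 and Cxcl10. Scaled to counts outside the mitochondrial genome, Ifit3 overlapped the resident range. For Ifit2, Usp18, Ddx58 and Cxcl9 the lowest resident value lies under the floors of the SiglecFhi/CD101+ libraries, so low counts do not settle their place. On CPM Trim25 alone lay above (2.44%), against 5.4% of all genes. Scaled to counts outside the mitochondrial genome, Stat2, Rtp4, Zbp1 and Samhd1 lay above as well. The median log2 fold change was -0.67 over the 29 type I and 0.13 over the 7 gamma responders tested, beside -0.72 over all tested genes. Without SiglecFhi/CD101+ replicate 1 these medians were -5.40, -4.75 and -3.15, without its replicate 2 the type I median was -1.56, and without either Siglec-Fint/CD101- replicate the gamma median was -0.39. The gamma median was also negative on library totals alone (-0.91), by limma-voom (-0.51) and with no filter on low counts (-0.34).

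Siglec-Fint/CD101- libraries were next compared with the same 4 resident libraries, so the 2 comparisons share their controls. Again edgeR called 0 members at an adjusted p under 0.05, 0 higher and 0 lower, against 0.0592% of all tested genes. Ifit3 had the smallest adjusted p of a member, 0.288 in edgeR, and was at least 12-fold lower, with 579 resident counts against 0. Stat2 had an edgeR log2 fold change of -3.32 ± 1.70 (SE, with adjusted p = 0.335), from 3 counts against 545, a ratio of 11.3 with a 95% counting interval of 3.85 to 55.0. Without Siglec-Fint/CD101- replicate 1, which held these 3 counts, the fitted value for Stat2 was -9.37, set against 0 counts and dependent on the prior count, and without replicate 2 it was -2.32. Cxcl10 had an edgeR log2 fold change of -2.86 ± 1.68 (SE, with adjusted p = 0.380) and lay below all resident values in both libraries. Without Siglec-Fint/CD101- replicate 1 the value for Cxcl10 was -4.64. Ifitm3 stood at -0.41 ± 0.50, Samhd1 at 0.41 ± 0.65 and Gbp7 at -0.08 ± 0.87 on the log2 scale (SE; edgeR). On library totals alone these 3 values were -1.45, -0.67 and -1.20. Samhd1 turned to -0.24 without Siglec-Fint/CD101- replicate 2. Gbp7 turned to 0.28 with RLE factors, 0.15 with upper-quartile factors, 0.41 without resident replicate 3 and 0.66 without Siglec-Fint/CD101- replicate 1.

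At an unadjusted p under 0.05 edgeR gave 0 members higher and 1 lower (Ifit3; 2.78%), against 15.7% of all tested genes. DESeq2 called Ifit3 alone, lower, against 5.49% of all genes, and limma-voom called 0 members, against 0.0169%. On CPM 10 of the 41 members with a count lay below every resident library (24.4%), against 18.2% of 21197 genes. These were Ifit2, Ifit3, Oas3, Stat2, Usp18, Ifi35, Gbp5, Cxcl9, Cxcl10 and Rtp4. Scaled to counts outside the mitochondrial genome, Ifi35 overlapped the resident range. For Ifit2, Oas3, Usp18, Gbp5 and Cxcl9 the lowest resident value lies under the floors of the Siglec-Fint/CD101- libraries, so counts of 0 do not settle their place. Parp14 alone lay above (2.44%), against 2.81% of all genes. The median log2 fold change was 0.11 over type I and -0.32 over gamma responders, beside -0.997 over all tested genes. Of the 36 members tested, 23 lay above and 13 below the median of all genes in edgeR and in DESeq2, but 18 and 18 by limma-voom. In edgeR these numbers were 19 and 17 in SiglecFhi/CD101+ against resident, and 13 and 20 between the subsets. Without Siglec-Fint/CD101- replicate 1 the type I median was -2.12 and without replicate 2 it was -1.72, while the median of all genes was -3.29 and -4.42. The type I median was also negative without resident replicate 6 (-0.042), without SiglecFhi/CD101+ replicate 1 (-0.24) or 2 (-0.25), and on library totals alone (-0.70, beside -1.96 over all genes). The gamma median was 0.43 without Siglec-Fint/CD101- replicate 1, -3.45 without replicate 2, 0.04 with RLE factors or DESeq2, -1.26 by limma-voom and -1.63 on library totals alone.

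The 2 subsets were compared with each other last, with 2 libraries a side. In edgeR 0 members passed an adjusted p under 0.05, 0 higher and 0 lower, against 0.00845% of all tested genes. Stat2 was higher in both SiglecFhi/CD101+ libraries, with an edgeR log2 fold change of 4.98 ± 1.90 (SE, with adjusted p = 0.243) and a ratio of 32.7 with a 95% counting interval of 10.9 to 161, from 116 counts against 3. Without Siglec-Fint/CD101- replicate 1 the fitted value for Stat2 was 10.9, against 0 counts and dependent on the prior count, and it was 3.87 to 5.46 without any other library. Ddx58 was at least 18.1-fold lower in SiglecFhi/CD101+, with 0 counts against 46 and an adjusted p of 0.239 in edgeR. Siglec-Fint/CD101- replicates 1 and 2 held 1 and 45 of these counts, so the bound rests on replicate 2. Ifit1 was lower in SiglecFhi/CD101+ by a ratio of 71.4 with a 95% counting interval of 19.4 to 597, from 2 counts against 121 (adjusted p = 0.243 in edgeR). Ifi35 had an edgeR log2 fold change of -4.81 ± 2.16 (SE, with adjusted p = 0.269), and without Siglec-Fint/CD101- replicate 1, its only library of that subset with a count, the value was 4.13. Ifitm3 had an edgeR log2 fold change of 0.90 ± 0.58 (SE, with adjusted p = 0.403) and was higher in 2 of 2 libraries.

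At an unadjusted p under 0.05 edgeR gave 1 member higher (Stat2) and 3 lower (Ifit1, Ddx58 and Ifi35), 11.1% of those tested, against 17.9% of all tested genes. DESeq2 called Stat2 higher and Ifit1 and Ddx58 lower (8.33%), against 10.7% of all genes, and limma-voom called 0 members and 0% of all genes. The SiglecFhi/CD101+ values lay above both Siglec-Fint/CD101- values for 5 of 41 members (12.2%: Isg15, Stat2, Ifitm3, Rtp4 and Trim25), against 10.5% of 21197 genes. They lay below for 3 (7.32%: Ifit1, Ddx58 and Parp14), against 6.95%. The lower Siglec-Fint/CD101- value of Ddx58, 0.727 CPM, lies under the floors of the SiglecFhi/CD101+ libraries. The median log2 fold change was -0.19 over type I responders and 0.00 over gamma responders, the latter being Cxcl9 with 0 counts in both subsets, beside 0.00 over all tested genes. Without Siglec-Fint/CD101- replicate 2 these medians were 0.40 and 1.47, and without SiglecFhi/CD101+ replicate 1 the gamma median was -2.13.

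**Figure D5:**
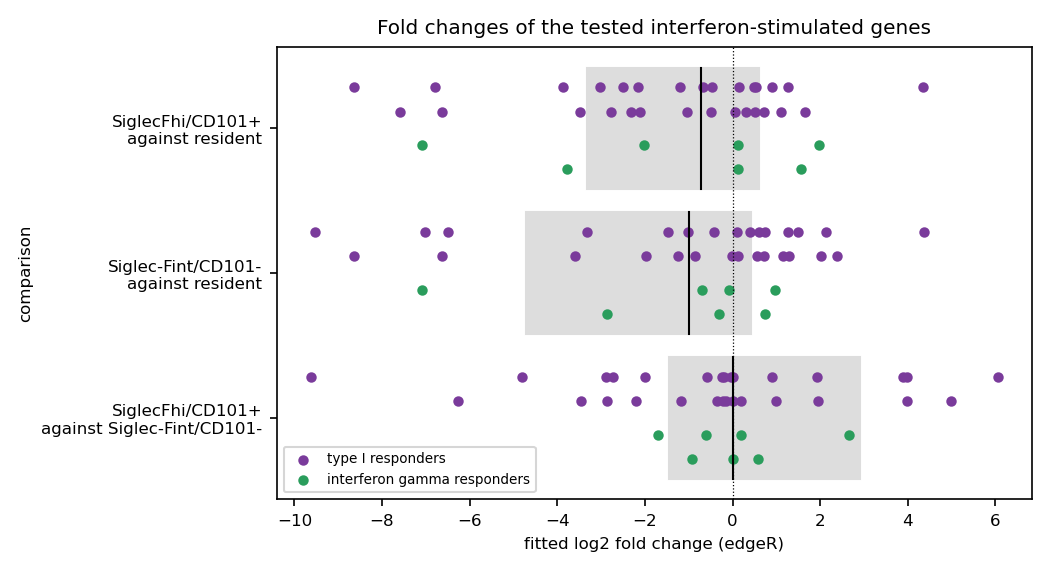
Fitted log2 fold changes (x axis) of the 36 tested members in the 3 comparisons (y axis), as points for type I (purple) and gamma responders (green); small vertical shifts only separate the points. Grey boxes span the interquartile range of all 11828 tested genes and black lines mark their medians of -0.72, -0.997 and 0.00; values beyond about -6 belong to genes with few or no counts in 1 group and depend on the prior count.

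Of 39 other genes of the interferon pathway, listed by role, 25 were tested and edgeR called 0 in each of the 3 comparisons. Among 10 interferon ligands only Ifnb1 had a count, 5 in resident replicate 3, and Ifng had 0 counts in all 8 libraries. Among 6 receptor subunits, those of the gamma receptor were counted in every library and those of the type I receptor were not. Ifnar1 was at 13.2, 16.7, 4.91 and 8.18 CPM in resident, at 0 and 8.69 in Siglec-Fint/CD101- and at 4.77 and 2.44 in SiglecFhi/CD101+ libraries. Ifnar2 was at 0, 9.28, 5.68 and 14.2 CPM in resident, at 0 in both Siglec-Fint/CD101- and at 1.06 and 3.05 in SiglecFhi/CD101+ libraries. Type I receptor transcripts were thus low in several libraries. For the gamma receptor, Ifngr1 was at 52.5, 50.7, 23.2 and 39.6 CPM in resident, at 19.6 and 52.1 in Siglec-Fint/CD101- and at 26.5 and 38.4 in SiglecFhi/CD101+ libraries. Ifngr2 was at 28.6, 88.2, 49.4 and 31.1 CPM in resident, at 43.6 and 44.7 in Siglec-Fint/CD101- and at 48.2 and 9.15 in SiglecFhi/CD101+ libraries. Both were counted in all 8 libraries with overlapping groups.

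The other listed pathway genes were sensors, kinases, induction factors and inhibitors. In SiglecFhi/CD101+ against resident libraries 0 pathway genes had an unadjusted p under 0.05 in edgeR. In Siglec-Fint/CD101- against resident libraries 1 was higher and 7 lower at that threshold (32% of 25, against 15.7% of all tested genes), and in SiglecFhi/CD101+ against Siglec-Fint/CD101- libraries 4 were higher and 0 lower (16%, against 17.9%). Without overlap, 6 of the 28 pathway genes with a count lay below every resident library in Siglec-Fint/CD101- (21.43%), against 18.2% of all genes. In SiglecFhi/CD101+ the number was likewise 6 of 28 (21.43%), against 16.7% of all genes. Tlr3, Tlr4 and Irf5 had 34, 56 and 38 counts in 1 Siglec-Fint/CD101- library and 0, 0 and 1 in the other. Irf3, Tmem173, Ptpn2 and Mavs had an unadjusted p under 0.05 in edgeR both against resident libraries and between the subsets. Irf3, the factor that starts interferon beta transcription, was at 54.0, 14.7, 23.8 and 8.31 CPM in resident, at 0 and 0.621 in Siglec-Fint/CD101- and at 15.9 and 12.8 in SiglecFhi/CD101+ libraries. Its log2 fold change was -6.19 ± 1.90 in Siglec-Fint/CD101- against resident (SE; adjusted p = 0.288 in edgeR) and 5.38 ± 1.93 between the subsets (adjusted p = 0.239). Without Siglec-Fint/CD101- replicate 2, which held its only count there, the fitted values for Irf3 were -10.6 and 9.67, dependent on the prior count. Tmem173, the gene of the DNA-sensing adaptor STING, was at 15.9, 44.8, 14.1 and 36.6 CPM in resident, at 0.727 and 0 in Siglec-Fint/CD101- and at 1.59 and 28.7 in SiglecFhi/CD101+ libraries. Ptpn2, a phosphatase that dampens cytokine signalling, was at 2.84, 30.5, 13.9 and 19.1 CPM in resident, at 0 in both Siglec-Fint/CD101- and at 3.71 and 30.5 in SiglecFhi/CD101+ libraries. These 3 genes lay lower in both Siglec-Fint/CD101- libraries than in any other library, although the 1.59 CPM of Tmem173 lies under the floors of the Siglec-Fint/CD101- libraries. Mavs, the adaptor of RIG-I and MDA5, was at 2.00, 9.83, 7.64 and 2.26 CPM in resident libraries, at 0 in both Siglec-Fint/CD101- libraries and at 0 and 64.03 in SiglecFhi/CD101+ libraries, so that 1 library held all subset counts. Tlr7, a receptor for single-stranded RNA and the gene higher in Siglec-Fint/CD101-, was at 0, 0, 0.491 and 0.865 CPM in resident, at 67.6 and 0 in Siglec-Fint/CD101- and at 0 and 8.54 in SiglecFhi/CD101+ libraries, again from 1 library. DESeq2 called Ptpn2, Irf3 and Tmem173 lower in Siglec-Fint/CD101- than in resident libraries, and called these and Mavs higher in SiglecFhi/CD101+ than in Siglec-Fint/CD101- libraries.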

How the data were processed

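The deposited files hold whole-number read counts per gene, 1 table per library, made by the authors. Per the submitters' processing notes the tools were FastQC 0.11.5, Trim Galore, cutadapt 1.10, TopHat2 2.1.0, Bowtie2 2.2.6, HTSeq 0.6.1 and DESeq2 1.28.0. Not given in the sources used here are the genome build, annotation release, strand setting and handling of molecular identifiers. Reads that share an amplified molecule would make counting intervals too narrow.

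Ensembl identifiers were matched to symbols and GRCm38 positions with GENCODE M21, and 54409 of 54446 matched. The 43 members, the 39 pathway genes and the marker lists were chosen with earlier results of these data known. Counts from all 8 libraries entered 1 edgeR 4.0.16 fit (R 4.3.3) with TMM factors, filterByExpr and robust two-sided quasi-likelihood tests, which was tested on simulated data. P-values were Benjamini-Hochberg adjusted over 11828 genes and called under 0.05. The common biological coefficient of variation was 1.12. DESeq2 1.42.0 and limma 3.58.1 (voom), other normalizations, filters and fits, and leaving out each library were alternatives. Members with at least 100 counts (35) are given in every library. Pathway genes named are the receptor subunits of both interferon kinds and Ifng, plus up to 4 with the smallest p in a comparison; 1 further gene of that rule is not reported here. Expected detection at a common depth used analytic rarefaction. No 2 libraries held identical values.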

Additional observations from a re-analysis of the deposited data

Results flagged for a closer look

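In the 4 resident libraries, 35 members with at least 100 counts were examined for a library that stood apart, by the gap from the highest or lowest library to its neighbour as a share of the whole range, against Dixon's critical value for 4 samples. Chance gives about 1 such group in 20. Isg15 had a share of 0.847, with resident replicate 3 at 38.6 CPM against 6.92 to 11.8 in the others. Gbp7 had a share of 0.912, with resident replicate 3 at 113 CPM against 42.5 to 48.7 in the others. Ifi27l2a had a share of 0.854, with resident replicate 4 at 39.1 CPM against 14.2 to 17.8 in the others.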

How the results depend on the processing

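Across 11 other normalizations, filters, tools and fits and 8 omissions of a library, 434 fold changes of named genes were recomputed, of which 403 kept direction and side of the threshold, 19 reversed and 12 passed it, all under DESeq2. The members called stayed at 0 in every comparison under all of these but DESeq2, which called 1 (SiglecFhi/CD101+ against resident), 1 (Siglec-Fint/CD101- against resident) and 3 (between the subsets).

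Genes called in SiglecFhi/CD101+ against resident were 3, and 7 on library totals alone, 905 by DESeq2, 370 with no filter and 1 with the compared groups alone. In Siglec-Fint/CD101- against resident they were 7, and 3 on library totals alone, 649 by DESeq2, 2 by limma-voom, 1 in a non-robust fit, 136 with no filter, 1 with 20 counts in 2 libraries and 0 with the compared groups alone. Between the subsets they were 1, and 1269 by DESeq2, 0 by limma-voom, 85 with no filter, 0 with the compared groups alone and 0 with a replicate block. The replicate numbers are only shared: deviations of the 2 subset libraries numbered 1 correlated at 0.00665. The type I median in SiglecFhi/CD101+ against resident was -0.67, and -0.19 with RLE and DESeq2 factors, -0.40 with upper-quartile factors, -1.23 on totals alone, -1.33 by voom, -1.11 with no filter and -0.98 with the compared groups alone. In Siglec-Fint/CD101- against resident it was 0.11, and 0.46 with RLE and DESeq2 factors, -0.70 on totals alone and -0.46 with no filter. By voom it was -1.02, beside -1.08 over all tested genes. The gamma median of that comparison was -1.63 on totals alone. The median of all tested genes moved with the scaling too, from -0.72 to -0.26 (RLE) and -1.46 (totals) in the first of these comparisons.

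Reversed values in SiglecFhi/CD101+ against resident were those of Ifitm3 (-0.35), Samhd1 (-0.66) and Gbp7 (-0.70) on totals alone and Samhd1 (-0.0086) with no filter. In Siglec-Fint/CD101- against resident they were Gbp7 (0.28 with RLE and DESeq2 factors, 0.15 with upper-quartile factors) and Samhd1 (-0.67 on totals alone). The causes were not tested. Scaled to the counts outside the mitochondrial genome, the summed level of all members in Siglec-Fint/CD101- over resident was 1.22 instead of 1.08. In SiglecFhi/CD101+ over resident it was also 1.22 on that scale. On TMM-scaled CPM the mean SiglecFhi/CD101+ sum lay slightly below the resident one, at 840 against 854. The mean number of members detected in resident libraries was 34.5 at the common depth instead of 38.

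Leaving out 1 library at a time gave 1 to 133 genes called in SiglecFhi/CD101+ against resident (131 and 133 without Siglec-Fint/CD101- replicate 1 or 2, 1 without SiglecFhi/CD101+ replicate 1, 6 without its replicate 2, 5 without resident replicate 5), type I medians from -5.40 to -0.024, gamma medians from -4.75 to 0.61, and values from -0.13 to 0.78 for Ifitm3, -0.064 to 0.30 for Samhd1 and -1.04 to 0.68 for Gbp7. In Siglec-Fint/CD101- against resident it gave 0 to 9 genes, type I medians from -2.12 to 0.46, gamma medians from -3.45 to 0.43, and values from -1.99 to 0.66 for Gbp7 and -0.24 to 0.79 for Samhd1. Between the subsets it gave 0 to 2 genes, type I medians from -0.36 to 0.40, gamma medians from -2.13 to 1.47 and values from -9.02 to 4.13 for Ifi35. A subset left with 1 library is assumed to vary like the others. Mean members detected ranged from 37.7 to 38.7 in resident, 23 to 26 in Siglec-Fint/CD101- and 21 to 33 in SiglecFhi/CD101+ libraries, and summed levels over resident from 0.995 to 1.17 and from 0.707 to 1.26. Depth limits the subsets, where a count of 0 allows up to 1.59 to 2.18 CPM.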
